A study of Mus musculus with 15 samples.

Results

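The SOCS family consists of intracellular inhibitors of cytokine signaling, and its 8 mouse genes are Cish, Socs1, Socs2, Socs3, Socs4, Socs5, Socs6 and Socs7. They were picked by gene symbol, and all 8 were found among the 53465 genes of the deposited count matrix. BMDMs, the macrophages that grow from mouse bone marrow under M-CSF, were cultured for 7 days in DMEM with 10% FBS and 20 ng/ml of M-CSF and then kept for 24 h in 5 conditions with 3 libraries each. These were no added cytokine (control), IL-4 at 10 ng/ml, this IL-4 dose plus 40 ng/ml of IL-6 (IL-4/IL-6), IL-13 at 40 ng/ml, and this IL-13 dose plus 40 ng/ml of IL-6 (IL-13/IL-6). None of the 5 groups had IL-6 alone, so IL-6 was compared only as a co-addition, and the doses of IL-4 and IL-13 differed. Per the study's methods the marrow came from mice aged 8 to 12 weeks, which applies to every group, while the labels give no age. A supplementary legend of the study calls RNA-seq libraries of the IL-4 groups biological replicates, but neither it nor the labels say whether the 3 libraries of a group came from separate mice or cultures. The p-values rest on a spread per gene estimated over all 15 libraries, part of which may be technical.

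Cytokine receptors of the type bound by IL-4, IL-13 and IL-6 signal through JAK kinases, which phosphorylate STAT transcription factors, and several SOCS genes are themselves switched on by STATs, which closes a negative feedback loop. Each SOCS protein has an SH2 domain, which docks on phosphotyrosines, and a SOCS box, which recruits elongins and cullin 5 to form a ubiquitin ligase. SOCS1 and SOCS3 also carry a kinase inhibitory region that blocks JAKs directly, and in macrophages they are best known as brakes on interferon and IL-4 signaling (SOCS1) and on the IL-6 receptor subunit gp130 (SOCS3). CIS (encoded by Cish) and SOCS2 are classical feedback inhibitors of STAT5-activating receptors, while SOCS4 to SOCS7 have longer N-terminal regions and have been linked mostly to receptor tyrosine kinases.

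The summed counts per library lay between 17001352 and 18918686 (median 18278484). All 8 genes passed the filter on low counts, as part of 13938 genes tested. The replicates were closest in the control and IL-4 groups, with a biological coefficient of variation of 4.49% and 4.54%, against 14.9% in IL-4/IL-6, 10.9% in IL-13 and 7.39% in IL-13/IL-6. The tests used a spread per gene shared by all groups, so they may understate it in comparisons with IL-4/IL-6 or IL-13. For IL-4 over control they may overstate it. In IL-4/IL-6 and in IL-13, 1 library each stood apart. IL-4/IL-6 replicate 2 had a mean chi-square per gene of 26.3 and 46.6 against its partners, which had 7.55 against each other, and IL-13 replicate 1 had 22.3 and 17.1, beside 3.93. All 7 macrophage markers examined were present in every library. Their summed level, in normalized CPM (CPM after TMM scaling of the library sizes), was 18634 to 20805 in control, 14196 to 14672 with IL-4 and 16811 to 19488 with IL-13. With IL-6 co-addition the sum was 10850 to 12643 (IL-4/IL-6) and 13696 to 14587 (IL-13/IL-6). The sum was lower with IL-4 than in control and lower with IL-6 than without it, with no overlap, but most of it was Lyz2 and the markers did not move together. Mean Lyz2 was 14914 in control, 9692 with IL-4, 6848 in IL-4/IL-6, 12737 with IL-13 and 8686 in IL-13/IL-6. Means of Adgre1 went instead from 882.9 to 1287 and from 940.007 to 1453 when IL-6 joined IL-4 and IL-13, Cd68 had 1316 in control and 1700.1 with IL-4, and Mertk had 142.4 in control and at most 17.9 elsewhere. The part of these markers in the SOCS results was not tested. The control libraries also held RNA of other marrow cells: the 9 granulocyte and precursor markers summed to between 494.8 and 584.3 normalized CPM in control and to between 1.64 and 2.89 in the 12 cytokine-treated libraries. Markers of mast cells, basophils and eosinophils (24.4 to 28.6), B cells (10.8 to 12.3), dendritic cells (20.5 to 22.9) and stromal cells (15.9 to 20.2) were likewise higher in control than in the other groups, where the highest sums were 0.443, 1.66, 1.04 and 0.230. Of these 4 lists, Mcpt4 was the marker at 0 in every library, and all 5 stromal markers were at 0 in the IL-4 libraries. The T and NK cell list summed to between 24.2 and 29.8 normalized CPM in control and to at most 0.394 elsewhere, but nearly all of it was Cd4, while Cd3e, Cd3g, Ncr1 and Trac had at most 3 counts in every library. The 5 megakaryocyte and platelet markers summed to between 379.3 and 425.9 normalized CPM in control, with means of 165.8 for Ppbp, 113.9 for Itga2b and 97.3 for Pf4. With IL-4 or IL-13 alone they summed to between 71.4 and 90.6, with Ppbp and Itga2b at means of at most 1.87 and 1.72. In IL-13/IL-6 the sum overlapped control, but there it was nearly all Pf4. The markers of these lists thus differ between control and every other group, and their part in the differences over control given below was not tested.

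Per gene length, the SOCS family as a whole was lowest in control and highest in IL-4/IL-6. The 8 FPKM values (the authors' counts scaled to gene length and library total) summed to 36.1 ± 0.559 (SD, n = 3) in control, 62.4 ± 3.24 in IL-4, 113.5 ± 10.7 in IL-4/IL-6, 37.7 ± 1.95 in IL-13 and 73.4 ± 1.94 in IL-13/IL-6. The control and IL-13 ranges overlapped (35.7 to 36.7 and 35.7 to 39.6), and the other groups lay apart from them and from each other. In control, Socs6 had the highest FPKM and made up 34.1% of the sum, followed by Socs4 with 24.1% and Socs5 with 19.3%. In IL-4, Socs1 alone made up 48.6%, against 2.41% in control. When IL-6 joined IL-4, Socs3 and Socs1 led, with 37.1% and 33.5%. In IL-13, Socs5 came first by its mean share of 28.5%, ahead of Socs1 with 23.1%. In IL-13 replicate 1, however, Socs1 was ahead (28.2% against 27.1%). In IL-13/IL-6, Socs3 made up 49.2% and Socs1 11.1%. Cish and Socs2 stayed minor on this scale, at no more than 1.21% and 1.40% of the sum in any library. The gene lengths implied by the FPKM were 1220 bases for Socs1, 2891 for Socs3, 6419 for Cish and 9531 for Socs2. Those of the other members lay between 4392 (Socs5) and 8225 (Socs6). The shares rest on these lengths, and another length per gene would change them.

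**Figure D1:**
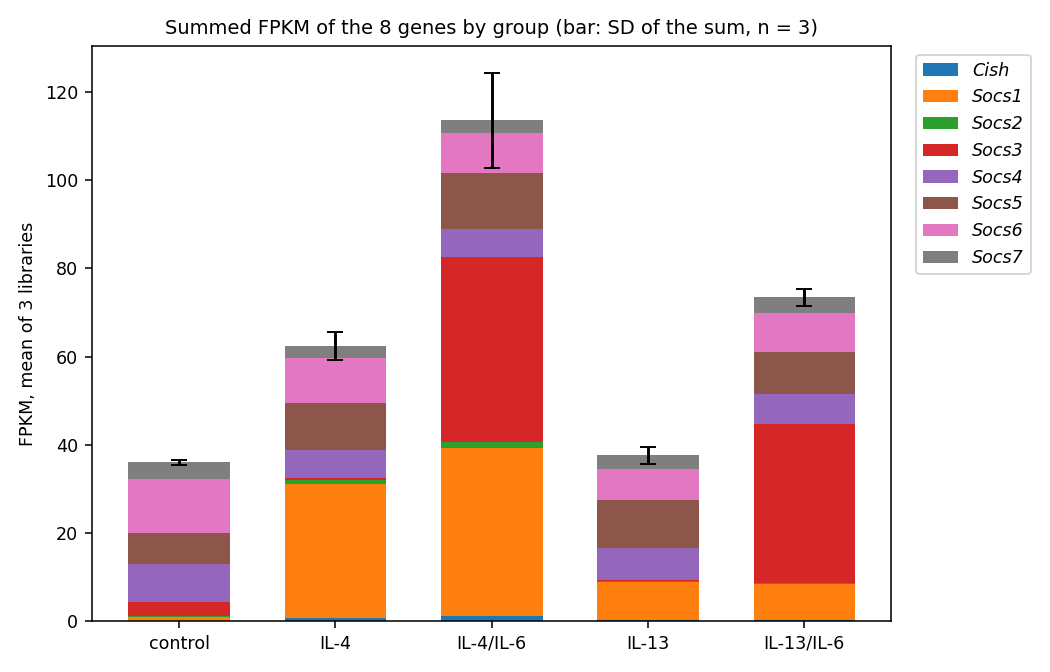
Stacked bars show the mean FPKM of each of the 8 SOCS genes (vertical axis, n = 3 libraries) in the 5 groups, and the error bar is the SD of the summed FPKM. The bars for Socs1 and Socs3 account for most of the height that IL-4/IL-6 (113.5) and IL-13/IL-6 (73.4) have over control (36.1).

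Socs3, the inhibitor that binds gp130, had the widest range of the 8 genes and was the member most affected by IL-6. The gene lies on GRCm38 chr11:117966079-117970047, minus strand (ENSMUSG00000053113, protein coding). Its level was 6.56, 9.47 and 10.1 normalized CPM in the control libraries, 1.28, 1.55 and 2.24 with IL-4, and 1.66, 1.13 and 1.03 with IL-13. With IL-6 co-addition it was 143.0, 121.0 and 121.9 in IL-4/IL-6 and 105.0, 106.0 and 109.5 in IL-13/IL-6. Every library with IL-6 was thus above every control library, and every library with IL-4 or IL-13 alone was below every control library. In the edgeR quasi-likelihood F-test, with p-values adjusted over all genes by Benjamini-Hochberg, Socs3 fell by 2.36 on the log2 scale with IL-4 (SE 0.201, adjusted p = 1.82e-08) and fell by 2.77 with IL-13 (SE 0.212, adjusted p = 6.15e-09). IL-6 raised it 75.9-fold over IL-4 (log2 fold change 6.25, SE 0.175, adjusted p = 3.99e-14 by the same edgeR test), and this was the change ranked 19 from the top among the 13938 genes. Over IL-13 it was 83.6-fold higher with IL-6 (6.39, SE 0.182, adjusted p = 9.83e-14, edgeR), at rank 8. Since Socs3 was lower with IL-4 or IL-13 alone than in control, the net increases over control were smaller, at 14.8-fold (3.88, SE 0.142) in IL-4/IL-6 and 12.3-fold (3.62, SE 0.141) in IL-13/IL-6.

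STAT3 and STAT5 dimers bind DNA at palindromes of the form TTCNNNGAA, so this motif is shown where a RefSeq promoter window (250 bases before to 50 bases after an annotated start, GRCm38.p6) held it. Windows were found for 4 of the 8 genes, Cish, Socs1, Socs3 and Socs4, while Socs2, Socs5, Socs6 and Socs7 were not matched. The motif was picked with these windows in view. The Socs3 window, which belongs to a start inside the annotated gene, held 1 match, which begins at base -154 counted from that start, on chr11:117969502-117969530 (minus strand, match in capitals):
Socs3: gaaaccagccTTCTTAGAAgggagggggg
On either strand, 8.3% of all 32851 windows of 300 bases hold TTCNNNGAA. The windows of Socs1 and Socs4 held no match, which says only that these letters are not in these windows.

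Socs1, the brake on interferon and IL-4 receptor signaling, was the member most raised by IL-4 and by IL-13. It lies on chr16:10782240-10785536, minus strand (ENSMUSG00000038037). Its level was 1.04, 1.11 and 0.897 normalized CPM in control, 39.9, 38.4 and 31.6 with IL-4, and 12.1, 9.45 and 9.32 with IL-13. It was 43.9, 46.1 and 57.3 in IL-4/IL-6 and 12.5, 9.16 and 9.01 in IL-13/IL-6. The control libraries were lowest, the IL-13 and IL-13/IL-6 libraries overlapped each other, and all IL-4 libraries lay above them. The increase over control was 35.8-fold with IL-4 (log2 fold change 5.16, SE 0.201, adjusted p = 7.88e-13, edgeR quasi-likelihood F-test, Benjamini-Hochberg adjusted) and 10.1-fold with IL-13 (3.33, SE 0.219, adjusted p = 8.74e-10). With IL-4 this was rank 50 from the top among all genes, and with IL-13 rank 80. IL-6 raised Socs1 a further 1.34-fold over IL-4 (0.42, SE 0.132, adjusted p = 0.0175, edgeR). That call was lost without IL-4 replicate 3 (0.30, adjusted p = 0.130), without IL-4/IL-6 replicate 3 (0.28, adjusted p = 0.114) and with upper-quartile scaling (0.33, adjusted p = 0.0615), and limma on FPKM gave 0.32 with an adjusted p of 0.123. Over IL-13, the change with IL-6 was -0.01 (95% interval -0.34 to 0.31, adjusted p = 0.968, edgeR).

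Cish, which encodes the STAT5-dependent inhibitor CIS, had a similar order of groups at far lower levels. It lies on chr9:107296026-107302784, plus strand (ENSMUSG00000032578). The control libraries had 3, 9 and 6 counts, or 0.156, 0.498 and 0.336 normalized CPM, so its fold changes over control rest on few reads. Levels were 4.81, 4.98 and 4.31 normalized CPM with IL-4 and 0.803, 1.35 and 1.24 with IL-13. When IL-6 was added they were 8.84, 6.24 and 8.86 (IL-4/IL-6) and 1.45, 0.705 and 1.39 (IL-13/IL-6). The groups without and with IL-6 overlapped for IL-13 but not for IL-4, and every group with a cytokine lay above control. Cish was 14.1-fold higher with IL-4 than in control (log2 fold change 3.82, SE 0.335, adjusted p = 2.63e-08, edgeR quasi-likelihood F-test, Benjamini-Hochberg adjusted) and 3.40-fold higher with IL-13 (1.76, SE 0.409, adjusted p = 0.00132). On the log2(FPKM + 0.1) scale, which understates changes of low genes, limma gave 2.47 and 0.87 for these, still called. IL-6 raised it 1.70-fold over IL-4 (0.76, SE 0.217, adjusted p = 0.00944, edgeR), and the call was lost without IL-4 replicate 3 (0.68, adjusted p = 0.0511), without IL-4/IL-6 replicate 1 (0.66, adjusted p = 0.0544) and with limma on FPKM (0.59, adjusted p = 0.0503). Over IL-13 the change with IL-6 was 0.06 (95% interval -0.62 to 0.74). Exons of Cish overlap the pseudogene Gm17040 and the antisense gene Gm17041 on the other strand, which had at most 2 and 0 counts in any library.

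The Cish promoter is known for clustered STAT5 sites, and its RefSeq window held a pair of TTCNNNGAA matches, which start at bases 1 and 12 counted from the RefSeq start. They lie on chr9:107296654-107296683, plus strand, within a first exon of a longer annotated transcript, and are in capitals:
Cish: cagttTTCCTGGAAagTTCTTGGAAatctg

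Socs2, best known as the feedback inhibitor of growth hormone signaling, was the gene among the 8 that IL-4 and IL-13 moved in opposite directions by a called amount. It lies on chr10:95385362-95417180, minus strand (ENSMUSG00000020027). Its level was 2.50, 3.21 and 2.35 normalized CPM in control, 7.59, 8.52 and 7.14 with IL-4, and 1.82, 1.74 and 1.60 with IL-13. It was 11.5, 14.4 and 13.2 in IL-4/IL-6 and 2.95, 3.47 and 4.003 in IL-13/IL-6. The IL-4 libraries lay above and the IL-13 libraries below all control libraries, and IL-6 libraries lay above their partner group without overlap in both cases. Socs2 rose 2.88-fold with IL-4 (log2 fold change 1.53, SE 0.160, adjusted p = 2.49e-07, edgeR quasi-likelihood F-test, Benjamini-Hochberg adjusted) and fell by 0.64 with IL-13 (SE 0.191, adjusted p = 0.00800). The fall with IL-13 was no longer called without control replicate 2 (-0.49, adjusted p = 0.0539). IL-6 raised Socs2 1.68-fold over IL-4 (0.75, SE 0.139, adjusted p = 0.000309, edgeR) and 2.02-fold over IL-13 (1.01, SE 0.185, adjusted p = 0.000451). In IL-13/IL-6 it overlapped control (0.37, adjusted p = 0.0711), though it was called higher there without control replicate 2 (0.52, adjusted p = 0.0261) or without IL-13/IL-6 replicate 1 (0.50, adjusted p = 0.0283). It was 0.28 without IL-13/IL-6 replicate 3 and 0.21 with limma on FPKM (adjusted p = 0.218).

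**Figure D2:**
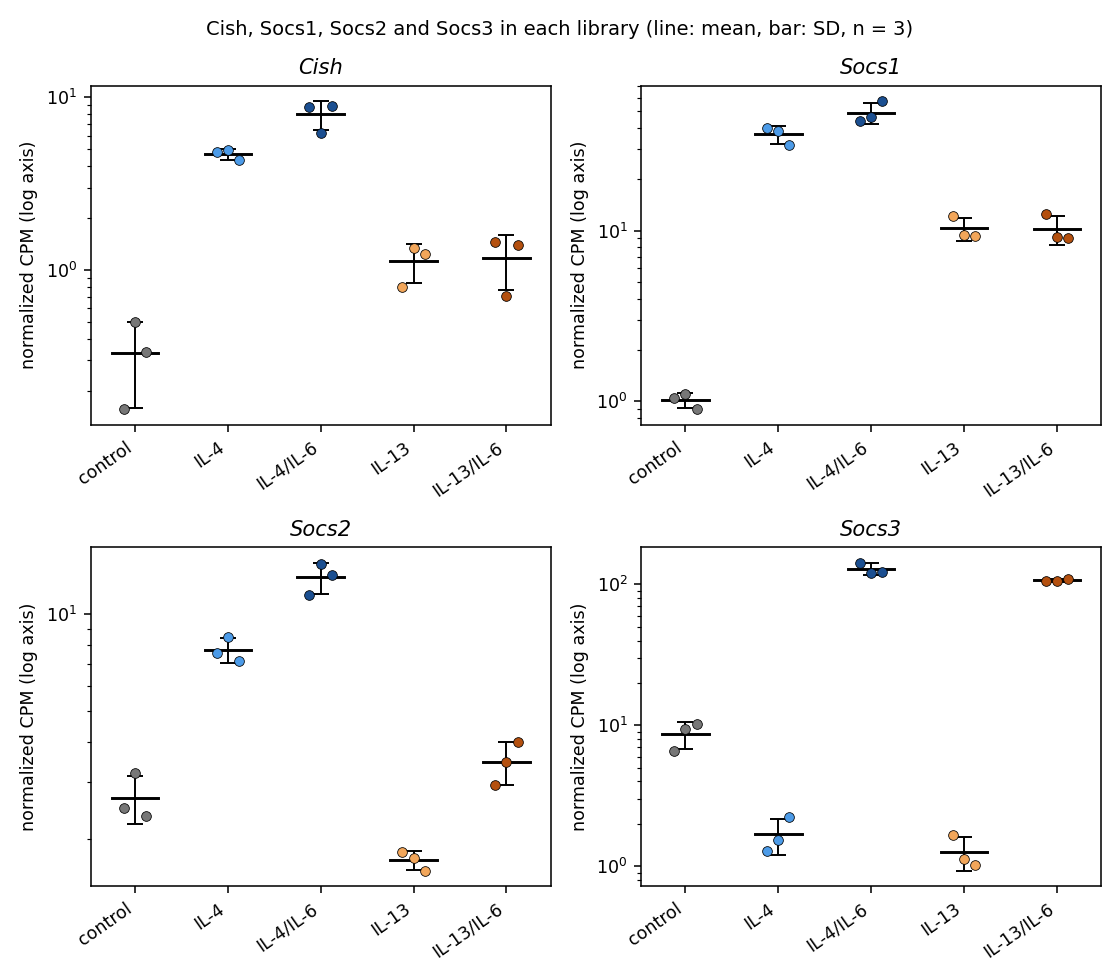
Each point is a library, with normalized CPM on a log axis by group for Cish, Socs1, Socs2 and Socs3, and the line and bar are the mean and SD (n = 3). Socs3 is at 105.0 or more in all IL-6 libraries and at 2.24 or less with IL-4 or IL-13 alone, while Socs1, Cish and Socs2 are highest in the groups with IL-4.

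Socs4, Socs5, Socs6 and Socs7 were present at moderate levels in every library and had narrow ranges, from 1.33-fold (Socs7) to 2.00-fold (Socs5) between the lowest and the highest group mean. Socs5, which has been linked to turnover of the EGF receptor and to limiting IL-4 receptor signaling in T cells, was the member of these that rose over control. It lies on chr17:87107679-87137839, plus strand (ENSMUSG00000037104). Its level was 31.8, 27.7 and 28.3 normalized CPM in control, 46.2, 47.5 and 46.5 with IL-4 and 42.0, 48.6 and 47.3 with IL-13. It was 56.5, 56.8 and 61.9 in IL-4/IL-6 and 44.1, 46.6 and 39.6 in IL-13/IL-6. Every cytokine-treated library was above every control library, the IL-4/IL-6 libraries were above all others, and the remaining treated groups overlapped. Socs5 rose 1.60-fold with IL-4 (log2 fold change 0.67, SE 0.0828, adjusted p = 1.69e-06, edgeR quasi-likelihood F-test, Benjamini-Hochberg adjusted) and 1.57-fold with IL-13 (0.65, SE 0.0828, adjusted p = 3.34e-06). IL-6 raised it 1.25-fold over IL-4 (0.32, SE 0.0807, adjusted p = 0.00391, edgeR), which limma on FPKM did not call (0.22, adjusted p = 0.0709). Over IL-13 the value with IL-6 was -0.08 (95% interval -0.25 to 0.09, adjusted p = 0.531).

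Socs6, an adaptor-like member that binds KIT and insulin receptor signaling proteins, was highest in control. It lies on chr18:88665224-88927481, minus strand (ENSMUSG00000056153). Its level was 91.9, 103.1 and 96.0 normalized CPM in control, 74.8, 83.1 and 89.9 with IL-4 and 53.0, 65.9 and 54.7 with IL-13. It was 76.4, 82.0 and 80.2 in IL-4/IL-6 and 74.2, 81.3 and 67.8 in IL-13/IL-6. All treated libraries were below all control libraries, the IL-13 libraries were lowest, and the other treated groups overlapped. Socs6 fell by 0.75 with IL-13 (SE 0.0928, adjusted p = 2.57e-06, edgeR quasi-likelihood F-test, Benjamini-Hochberg adjusted). With IL-4 the value was -0.23 (SE 0.0916, adjusted p = 0.0334), a call that held in 6 of the 15 fits that left out a library (those without control replicate 1, IL-4 replicate 3, IL-4/IL-6 replicate 3, IL-13 replicate 2, IL-13 replicate 3 or IL-13/IL-6 replicate 2), with -0.26 to -0.13 over all of them and -0.19 without either library that stood apart (adjusted p = 0.0538 and 0.0582). It was also lost with no filter on low counts (-0.15, adjusted p = 0.175) and in the fit of 9 libraries without the IL-13 groups (-0.18, adjusted p = 0.0599). IL-6 raised Socs6 1.29-fold over IL-13 (0.36, SE 0.0930, adjusted p = 0.00720, edgeR). Over IL-4 its change was -0.05 (95% interval -0.25 to 0.14). Against control, Socs6 was -0.29 in IL-4/IL-6 (adjusted p = 0.0101, and 0.0502 without IL-4/IL-6 replicate 1) and -0.38 in IL-13/IL-6 (adjusted p = 0.00158).

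Socs4, the close relative of Socs5, was also highest in control. It lies on chr14:47276931-47296102, plus strand (ENSMUSG00000048379). Its level was 60.4, 57.9 and 53.2 normalized CPM in control, 39.0, 45.4 and 41.4 with IL-4 and 40.5, 53.1 and 50.9 with IL-13. It was 45.2, 43.5 and 48.2 in IL-4/IL-6 and 47.5, 47.4 and 44.6 in IL-13/IL-6. All treated libraries were below the lowest control library, and the 4 treated groups overlapped their neighbours in order of level. Socs4 fell by 0.45 with IL-4 (SE 0.0941, adjusted p = 0.000478, edgeR quasi-likelihood F-test, Benjamini-Hochberg adjusted). The value with IL-13 was -0.25 (adjusted p = 0.0299), a call that held in 6 of the 15 fits without a library (without control replicate 3, IL-4/IL-6 replicate 2, IL-4/IL-6 replicate 3, IL-13 replicate 2, IL-13 replicate 3 or IL-13/IL-6 replicate 2), with -0.31 to -0.10 over all of them and the value nearest 0 without IL-13 replicate 1 (-0.10, adjusted p = 0.309). It was also lost with no filter on low counts (-0.19, adjusted p = 0.117). The changes with IL-6 were 0.12 over IL-4 (95% interval -0.08 to 0.32) and -0.05 over IL-13 (-0.25 to 0.15). Over control, Socs4 was -0.33 in IL-4/IL-6 (adjusted p = 0.00509) and -0.30 in IL-13/IL-6 (adjusted p = 0.0102, 0.0621 without IL-13/IL-6 replicate 3 and 0.0512 with no filter on low counts).

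Socs7, an adaptor-like member that shuttles between nucleus and cytoplasm, had the narrowest range of the 8 genes, 1.33-fold between its lowest and highest group means. It lies on chr11:97362551-97398542, plus strand (ENSMUSG00000038485). Its level was 25.1, 26.6 and 26.6 normalized CPM in control, 19.6, 19.6 and 19.7 with IL-4 and 18.4, 21.7 and 24.9 with IL-13. It was 22.8, 18.3 and 24.7 in IL-4/IL-6 and 24.2, 27.2 and 26.1 in IL-13/IL-6. The IL-4, IL-13 and IL-4/IL-6 libraries were all below the control libraries, while IL-13/IL-6 overlapped control. Socs7 fell by 0.41 with IL-4 (SE 0.113, adjusted p = 0.00404, edgeR quasi-likelihood F-test, Benjamini-Hochberg adjusted). With IL-13 it was -0.27 (adjusted p = 0.0475), and that call held in 3 of the 15 fits without a library (without IL-4/IL-6 replicate 2, IL-4/IL-6 replicate 3 or IL-13 replicate 3), with -0.37 to -0.13 over all of them and the value nearest 0 without IL-13 replicate 1 (-0.13, adjusted p = 0.357). No filter on low counts (-0.21, adjusted p = 0.154) and limma on FPKM (-0.30, adjusted p = 0.0734) did not call it either. IL-6 left values of 0.16 over IL-4 (95% interval -0.08 to 0.40) and 0.26 over IL-13 (0.02 to 0.49, adjusted p = 0.114), and the latter was called without IL-13 replicate 3 (0.36, adjusted p = 0.0410) but was 0.14 without IL-13 replicate 1 (adjusted p = 0.408). In IL-4/IL-6 it was -0.25 over control (adjusted p = 0.0565), and it was called lower without IL-4/IL-6 replicate 3 (-0.35, adjusted p = 0.0143), without IL-13 replicate 3 (-0.25, adjusted p = 0.0430), with upper-quartile scaling (-0.32, adjusted p = 0.0174), with the stricter filter of 1 CPM in 3 libraries (-0.27, adjusted p = 0.0419) and with limma on FPKM (-0.39, adjusted p = 0.0184). Without IL-4/IL-6 replicate 2 it was -0.11 (adjusted p = 0.374).

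**Figure D3:**
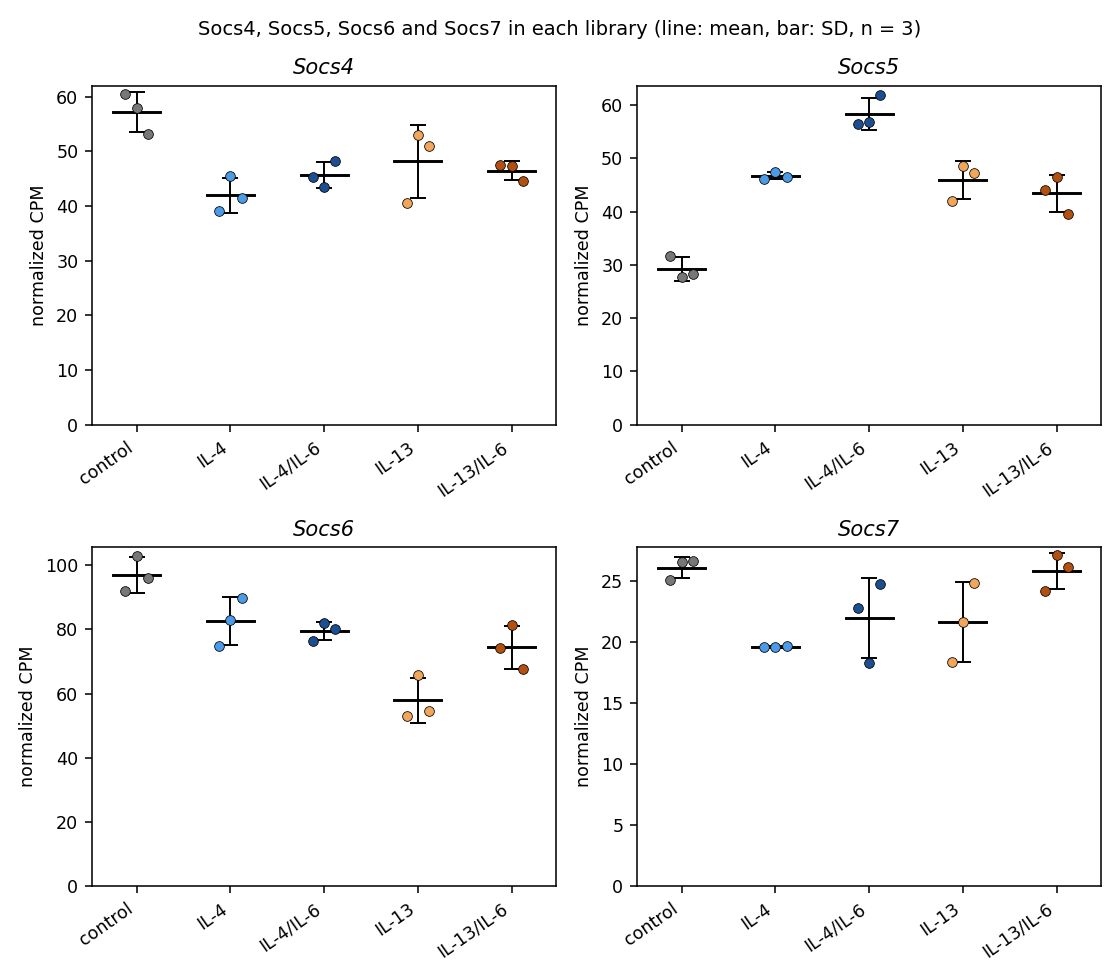
Each point is a library, with normalized CPM on a linear axis from 0 by group for Socs4, Socs5, Socs6 and Socs7, and the line and bar are the mean and SD (n = 3). Socs5 is lowest and Socs4 and Socs6 are highest in the control libraries, and Socs7 varies least.

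With IL-4, all 8 genes were called over control at an adjusted p under 0.05, 4 higher (Cish, Socs1, Socs2 and Socs5) and 4 lower (Socs3, Socs4, Socs6 and Socs7), where 68% of all tested genes were called, 32.1% higher and 35.9% lower. With IL-13, all 8 were called as well, 3 higher (Cish, Socs1 and Socs5) and 5 lower, against 60.1% of all genes (29% higher, 31.1% lower), and 5 were called without control replicate 2. With so many of all genes called, the counts alone say little about these 8 genes, and the sizes are given beside them. The median absolute log2 change of the 8 genes was 1.10 with IL-4 and 0.70 with IL-13, beside 0.57 and 0.46 over all genes. In IL-4/IL-6, 7 of 8 were called over control (5 higher, 2 lower) where 72.9% of genes were, 35.4% higher and 37.5% lower. In IL-13/IL-6, 6 of 8 were called (4 higher, 2 lower) where 64% of genes were, 31.9% higher and 32.1% lower. The libraries of control and the treated group did not overlap for 8 of 8 genes with IL-4 (76.2% of all genes), 8 with IL-13 (67.1%), 8 in IL-4/IL-6 (74.3%) and 6 in IL-13/IL-6 (73%). The granulocyte and other marrow cell markers differed between control and every treated group as given above, and in bulk RNA fewer cells of a type and less RNA per cell cannot be told apart.

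With IL-6 co-addition to IL-4, 5 of the 8 genes were called higher (Cish, Socs1, Socs2, Socs3 and Socs5) and 0 lower by edgeR, with 39.4% of all genes called, 20.7% higher and 18.7% lower. With co-addition to IL-13, 3 were called higher (Socs2, Socs3 and Socs6) and 0 lower, with 25.6% of all genes called, 12.1% higher and 13.5% lower. The median log2 change of the 8 genes was 0.37 over IL-4 and 0.16 over IL-13, beside 0.038 and 0.0054 over all genes. The libraries without and with IL-6 did not overlap for 5 of 8 genes over IL-4 (46.7% of all genes) and 3 of 8 over IL-13 (37.7%). For IL-4, the call of Cish and Socs1 depended on single libraries as given above, and 3 genes were called without IL-4 replicate 3 and 2 (Socs2 and Socs3) with limma on FPKM. The balance of calls over all genes also moved with the scaling, from 2885 higher and 2603 lower to 2073 and 3245 with upper-quartile factors and 1954 and 3283 on FPKM for IL-4, and from 1684 and 1879 to 1276 and 2262 on FPKM for IL-13. The granulocyte markers were near 0 on both sides of these comparisons (at most 2.89 normalized CPM). The 5 megakaryocyte and platelet markers summed to between 71.4 and 76.6 normalized CPM with IL-4 and between 73.8 and 90.6 with IL-13. When IL-6 was added the sums were between 175.1 and 314.2 (IL-4/IL-6) and between 348.8 and 422.1 (IL-13/IL-6), nearly all of it Pf4. These markers were also high in control, as given above, where Ppbp and Itga2b made up most of the sum. Their part in the SOCS results was not tested.

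**Figure D4:**
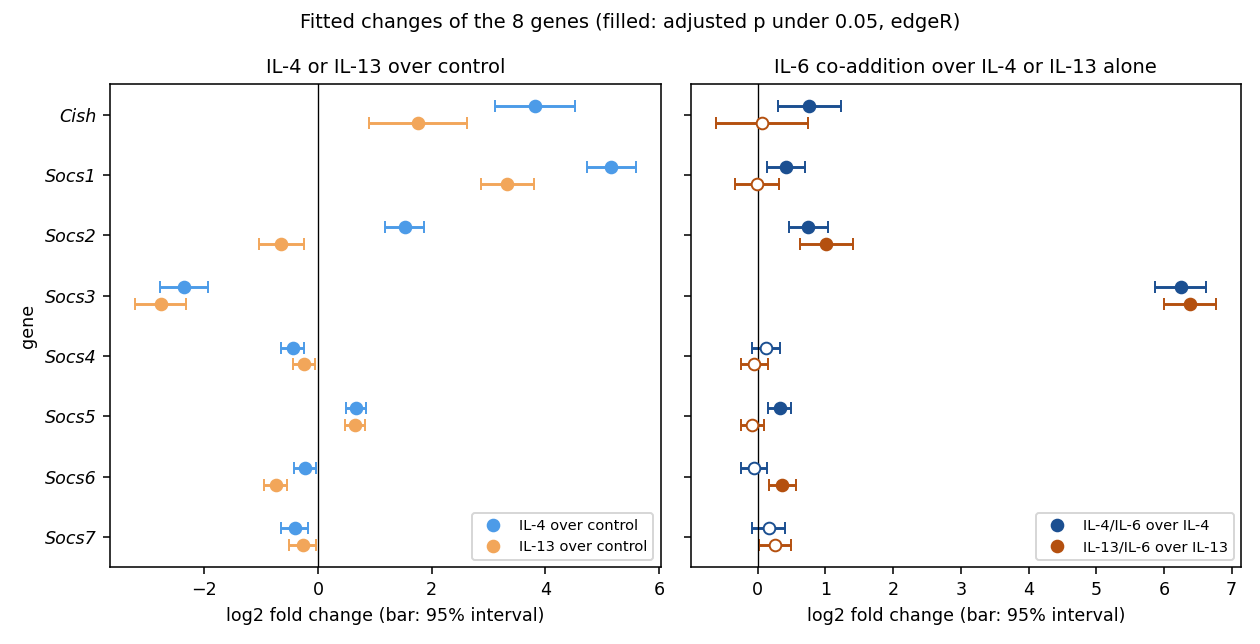
Points are fitted log2 fold changes of the 8 SOCS genes with 95% intervals, filled where the adjusted p by edgeR was under 0.05, for IL-4 or IL-13 over control (left) and for IL-6 co-addition (right). Socs3 lies below 0 on the left (-2.36 and -2.77) and above 6 on the right (6.25 and 6.39).

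IL-4 at 10 ng/ml and IL-13 at 40 ng/ml left different levels of 4 members, although the doses differed and the comparison is of these treatments as given. Socs2 was 4.50-fold, Cish 4.15-fold and Socs1 3.55-fold higher with IL-4 (log2 differences 2.17, 2.05 and 1.83, adjusted p = 1.27e-07, 4.39e-05 and 1.43e-07 by edgeR's quasi-likelihood test). Socs6 was 1.43-fold higher (0.51, adjusted p = 0.00103). These 4 of 8 genes stand beside 12.8% of all genes called, 5.16% higher and 7.61% lower with IL-4, and they are the 4 whose libraries did not overlap, against 31.5% of all genes. Socs3 was not called (0.41, 95% interval -0.18 to 1.00), nor were Socs4, Socs5 and Socs7 (values between -0.20 and 0.02), apart from Socs4 without IL-13 replicate 1 (-0.30, adjusted p = 0.0180), which was -0.13 without IL-13 replicate 2 (adjusted p = 0.543). With IL-6 in both groups, Cish (2.76), Socs1 (2.27), Socs2 (1.90) and Socs5 (0.43) were above IL-13/IL-6 in the IL-4/IL-6 group, 4 of 8 where 31.3% of all genes were called, 15.8% higher and 15.5% lower. With Socs3, 5 of 8 had libraries that did not overlap, against 39.3% of all genes. Socs3 differed by 0.27 there (95% interval 0.02 to 0.52, adjusted p = 0.0967, edgeR), with ranges that did not overlap, and was called without IL-4/IL-6 replicate 2 (0.31, adjusted p = 0.0488) and with no filter on low counts (0.24, adjusted p = 0.0471), but was 0.18 without IL-4/IL-6 replicate 1 (adjusted p = 0.353) and 0.21 with limma on FPKM (adjusted p = 0.440). Socs7 was -0.24 there (adjusted p = 0.127) and was called lower without IL-4/IL-6 replicate 3 (-0.34, adjusted p = 0.0334), but was -0.12 without IL-4/IL-6 replicate 2 (adjusted p = 0.456).

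Whether the IL-6 effect itself differed between the IL-4 and IL-13 backgrounds was tested as the difference of both log2 changes. For Socs3 this difference was -0.14 with a 95% interval of -0.78 to 0.50 (adjusted p = 0.886, edgeR's quasi-likelihood test). Of the 8 genes, Socs5 was called (0.40, 95% interval 0.16 to 0.65, adjusted p = 0.0388), against 7.64% of all genes (3.22% higher, 4.42% lower), and that call was lost in 11 of the 15 fits without a library. Socs6 had a difference of -0.42 (95% interval -0.69 to -0.14, adjusted p = 0.0644) and was called under 8 alternatives, 4 of which left out a library (IL-4 replicate 1, IL-4/IL-6 replicate 2, IL-13 replicate 2 or IL-13/IL-6 replicate 3, with -0.52 to -0.44), while it was -0.36 without IL-13/IL-6 replicate 2 (adjusted p = 0.154). For Cish (0.71), Socs1 (0.44) and Socs2 (-0.26) the differences were not called (adjusted p = 0.378, 0.270 and 0.642), so the calls of Cish and Socs1 over IL-4 but not over IL-13 do not show a different response.

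Other genes of the same pathways were followed as 6 lists, given as called genes out of those tested, beside the shares over all genes given above (20.7% higher and 18.7% lower over IL-4, 12.1% and 13.5% over IL-13). The counts of most lists are small, and nothing particular to a list is read from them. Among receptor chains and JAKs, IL-6 raised 5 of 9 over IL-4 and 5 of 9 over IL-13, with 1 and 0 lower and median log2 changes of 0.29 and 0.56. Il4ra, the receptor chain shared by IL-4 and IL-13, went from 35.6 to 2311 normalized CPM in the IL-4 groups (log2 fold change 6.02, SE 0.0872) and from 51.0 to 1562 in the IL-13 groups (4.94, SE 0.0827). Il6st, which encodes gp130, the docking partner of SOCS3, rose by 1.14 over IL-4 (SE 0.136) and by 0.58 over IL-13 (SE 0.136), and the kinase genes Jak2 and Jak3 rose by 1.67 and 1.54 over IL-4 and by 0.56 and 1.69 over IL-13. Among the STAT genes, 2 rose over IL-4 and 3 rose over IL-13. Stat3, the main STAT downstream of gp130, rose by 1.72 over IL-4 and 1.63 over IL-13, and Stat5a rose by 0.48 and 0.41. Stat2 was called over IL-13 (0.42, adjusted p = 0.0203, edgeR) and not over IL-4 (0.31, adjusted p = 0.0692).

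The 13 other inhibitors of JAK-STAT signaling did not move as a block, with 4 higher and 3 lower over IL-4 and 3 higher and 4 lower over IL-13 (medians 0.078 and 0.047). The phosphatase genes Ptprc (CD45) and Ptpn6 (SHP-1) fell by 0.80 and fell by 0.74 over IL-4, with -0.29 for each over IL-13, while Ptpn1 (PTP1B) rose by 0.33 and 0.74 and the ubiquitin ligase gene Cblb by 0.35 and 0.73. Of the 10 ubiquitin ligase partners of the SOCS box, 4 rose over IL-4 and 3 over IL-13, with 0 lower and medians of 0.21 and 0.17. Of all genes, 20.7% and 12.1% were called higher in these comparisons, and 39.4% and 25.6% in either direction. With only 10 genes in the list, nothing is read from this. Cul5, the cullin that SOCS boxes recruit, rose by 0.48 (SE 0.0686) over IL-4 and 0.35 (SE 0.0689) over IL-13, and Eloc (elongin C) rose by 0.34 and 0.43. The NEDD8-conjugating enzyme genes Ube2m and Ube2f, which serve cullins, were each called in a single background, Ube2m over IL-4 (0.37) and Ube2f over IL-13 (0.34), with 0.16 and 0.18 in the other.

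Of 24 further genes for SOCS box proteins, 17 were tested, of which IL-6 raised 3 and lowered 6 over IL-4 and raised 3 and lowered 2 over IL-13 (medians -0.076 and -0.012). Spsb1, whose product uses a SOCS box to target inducible nitric oxide synthase, rose by 2.105 (SE 0.281) over IL-4 and 0.96 (SE 0.276) over IL-13, from 0.922 to 3.998 and from 1.33 to 2.59 normalized CPM. Members of the ankyrin repeat group, Asb4, Asb10 and Asb14, changed by -1.12, -2.51 and -1.79 over IL-4 at levels of at most 1.82 normalized CPM in those groups. Over IL-13, Asb4 was called (-1.60) and Asb10 (-1.82, adjusted p = 0.0687) and Asb14 (-0.76, adjusted p = 0.164) were not. Asb9, Asb11, Asb12, Asb15, Asb16, Asb17 and Asb18 were too low to test. Of 15 ligands, 6 were tested, and 3 rose and 1 fell in both backgrounds. Il10, whose product also signals through STAT3, rose by 3.49 over IL-4 (1.32 to 14.9 normalized CPM) and 2.92 over IL-13, the gp130 ligand gene Osm rose by 3.43 and 1.72, and Il4 transcripts rose by 2.63 and 2.18 at levels of at most 8.77 normalized CPM. Igf1 fell by 1.11 over IL-4 and fell by 0.54 over IL-13. Transcripts of Il6 itself had at most 7 counts in any library.

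The genes nearest in pattern to the 4 members with more than a 4-fold range were found by the root mean square difference of log2 CPM over the 15 libraries, each gene centred on its own mean, among 11998 named genes. For Socs3, whose own values had a root mean square of 2.82 about their mean, these were Ednrb (endothelin receptor B, distance 0.562), Nxpe5 (0.627) and Il4ra (0.658). Ednrb had group means of 15.9, 6.36, 497, 1.96 and 258 normalized CPM in the order control, IL-4, IL-4/IL-6, IL-13 and IL-13/IL-6, so it shared with Socs3 the lower level under IL-4 or IL-13 alone and the high level with IL-6. For Socs1, whose own value was 1.93, they were Ehd2 (membrane trafficking ATPase, 0.334), Lipn (lipase family, 0.403) and Slc7a2 (cationic amino acid transporter, 0.425). For Cish (own value 1.56) they were Ehd2 (0.482), Fbln5 (fibulin 5, 0.513) and Lipn (0.518), so Ehd2 and Lipn were near to both. For Socs2 (own value 1.04) they were Chil3 (chitinase-like protein Ym1, 0.361), Il1rl2 (IL-36 receptor, 0.439) and Rasgrp1 (Ras activator, 0.460). The distances are a description of these libraries, and the same 3 genes were nearest to each member with a prior count of 0.5 in place of 2.

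**Figure D5:**
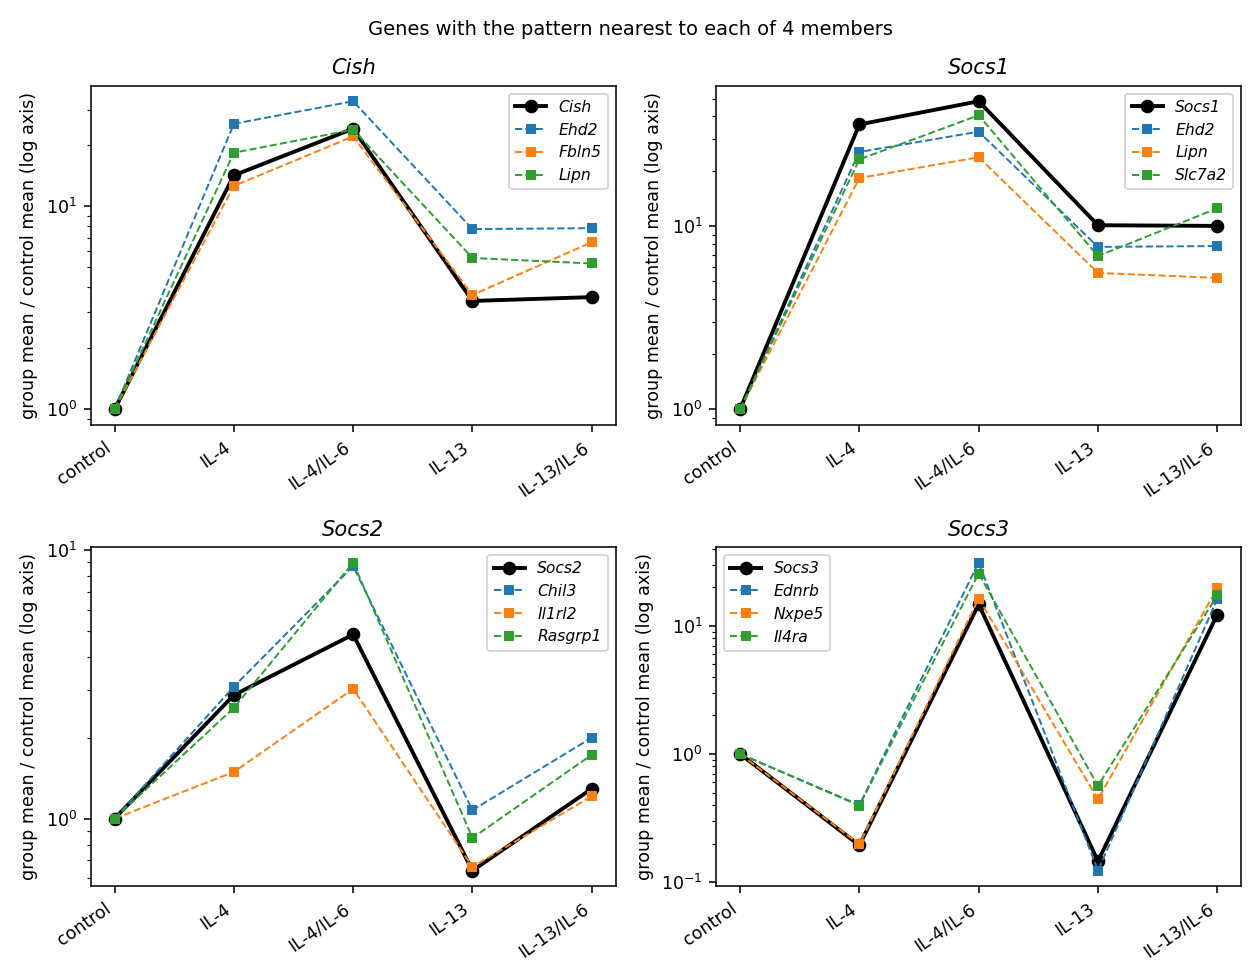
Each panel shows group means of normalized CPM divided by the control mean (log axis) for a SOCS gene (black) and its 3 nearest genes (dashed), and lines only join the 5 groups. Ednrb, Nxpe5 and Il4ra go down with IL-4 or IL-13 alone and up with IL-6 as Socs3 does, and the neighbours of Socs1 and Cish are highest in IL-4/IL-6, followed by IL-4.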

How the data were processed

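The 8 genes, the pathway lists, the cell type markers and the tests were chosen with earlier results of these data known. RNA of the 15 libraries was sequenced and processed by a service company, and the submitters' processing notes list CASAVA, Bowtie2 2.2.3, HISAT2 2.1.0, TopHat2, DESeq2 and the build GRCm38. The counting tool, the annotation release and the use of strand are not given in the sources used here. The authors deposited raw counts per gene for 53465 genes and FPKM values for 26080 genes, and on 14413 genes the deposited FPKM equaled the count divided by a fixed gene length and the summed count (relative spread at most 1.1e-07). Symbols were found for 53274 identifiers.

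Counts of all 15 libraries were fitted together, without covariates, with edgeR 4.0.16 in R 4.3.3 (filterByExpr with a minimum count of 10, TMM factors, glmQLFit and glmQLFTest), and p-values were adjusted by Benjamini-Hochberg over the 13938 genes tested, with a threshold of 0.05. The model was tested on simulated counts. Normalized CPM were computed with TMM-scaled library sizes, and FPKM were used to compare levels between genes, to sum the 8 genes in each group, and in the limma alternative below. Named genes were all 8 members, up to 4 called genes per pathway list with the largest changes with IL-6, and the 3 genes nearest in pattern to each member with at least 1 normalized CPM and a 4-fold range. Alternatives were DESeq2 1.42.0, upper-quartile factors, no filter or 1 CPM in 3 libraries, a replicate block, limma 3.58.1 on log2(FPKM + 0.1), fits of 9 libraries, and leaving out each library. Replicate pairs differed by more than sampling noise (mean chi-square per gene between 2.68 and 46.6), so none was counted as a duplicate. The motif TTCNNNGAA, which reads the same on both strands, was searched in RefSeq windows. Gene positions are from the GENCODE annotation of GRCm38. Some details of the mice and some genes of the pathway lists are not reported here.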

Additional observations from a re-analysis of the deposited data

Results flagged for a closer look

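The change of Socs5 with IL-6 differed between the IL-4 and the IL-13 background, by 0.40 on the log2 scale (SE 0.115, adjusted p = 0.0388, edgeR quasi-likelihood F-test). The level rose from a mean of 46.7 to 58.4 normalized CPM when IL-6 was added to IL-4, in 3 of 3 libraries above all IL-4 libraries, and was 45.9 and 43.4 without and with IL-6 in IL-13, where the libraries overlapped. The difference kept its sign under every alternative run (0.33 to 0.45), with adjusted p-values of up to 0.134, and its call was lost in 11 of the 15 fits without a library and with upper-quartile factors, no filter, the replicate block and limma on FPKM.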

How the results depend on the processing

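Over the 8 genes and 9 comparisons there were 72 results, of which 46 were called, and 36 of these kept direction and call under every alternative run. Of 1560 values under alternatives, 1455 kept direction and call, 62 lost a call, 20 gained a call and 23 changed sign. The number of members called moved by over 1.5 times in 3 comparisons, and the cause was not tested. It was 8 for IL-13 over control and 5 to 8 without single libraries. It was 5 for IL-6 co-addition to IL-4, 2 with limma on FPKM and 3 to 5 without single libraries. It was 1 for the difference of the IL-6 effects, 2 with DESeq2, 0 with limma on FPKM and 0 to 2 without single libraries. Changes of sign were confined to results that were not called. Cish in IL-13/IL-6 over IL-13 became -0.019 with limma on FPKM and -0.14 to 0.32 without single libraries, and Socs7 in IL-13/IL-6 over control became 0.060 with no filter and -0.046 to 0.059 without single libraries. Without single libraries, IL-13/IL-6 over IL-13 ranged from -0.17 to 0.016 for Socs4 and -0.19 to 0.11 for Socs1, IL-4 over IL-13 from -0.030 to 0.062 for Socs5, IL-4/IL-6 over IL-13/IL-6 from -0.079 to 0.0078 for Socs4, and the difference of the IL-6 effects from -0.21 to 0.018 for Socs7 and -0.39 to 0.10 for Socs3. The replicate numbers did not pair the libraries, since 3 of 30 same-number pairs had a correlation over 0.1 (-0.276 to 0.163). The replicate block left the Socs5 difference uncalled (0.40, adjusted p = 0.0670, edgeR) and called that of Socs6 (-0.42, adjusted p = 0.0385), and changed no other result of the 72. On FPKM the median change of all genes in IL-4/IL-6 over control was -0.19 in place of -0.05. Depth limits Cish most, which had 3 to 9 counts in the control libraries. Socs1 had 16 to 20 counts in control, and Socs2 had 31 to 34 with IL-13. Socs3 had 24 to 41 counts with IL-4 and 20 to 31 with IL-13. Their fold changes over these groups thus also rest on modest counts.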
